A study of Mus musculus with 22 samples.

Results

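Dorsal and ventral striatum were compared in mice trained on oxycodone, an opioid painkiller that they infused themselves, with 10 of the 22 libraries of the series. The dorsal side was the 5 libraries labelled oxycodone and dorsal striatum, and the ventral side was replicates 1 to 5 of the 6 libraries labelled oxycodone and ventral striatum. Ventral replicate 6 was left out because its region marker genes had the levels of dorsal tissue, so the 10 libraries were partly chosen by measured values, the levels of region marker genes. All mice were male C57BL/6J. The oxycodone mice received it at 0.25 mg/kg per infusion in sessions of 4 h a day over 14 days. The saline groups, 5 dorsal and 6 ventral libraries, came from yoked male mice of the same strain, which were infused with saline on the same schedule and whose infusions did not depend on their own responding. The labels do not say which libraries came from one animal or whether animals were pooled, so p-values measure the spread between these samples, which may be partly technical. Dorsal replicates 2 and 3 carry the same title number, 3, and the labels do not say whether they came from 1 animal. Dissected tissue was sequenced in bulk, and fewer cells of a type cannot be told apart from less RNA per cell.

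The striatum is built mainly of medium spiny neurons, which receive cortical and thalamic glutamate and midbrain dopamine and fall into D1 receptor and D2 receptor classes. The dorsal part, the caudate putamen, is known for motor control and habits, and the ventral part, which holds the nucleus accumbens, for reward and motivation. Opioids such as oxycodone act mainly on the mu opioid receptor, which in the striatum is known for its dense patches, the striosomes, set in a surrounding matrix.

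Region and counting were confounded in these libraries. The 5 dorsal libraries held 13797075 to 17836414 counts and the 5 ventral ones 8408829 to 10007992. Among genes with 1 to 9 counts, 71.5 to 76.0% of the dorsal counts were even numbers, against 37.6 to 40.0% in the ventral libraries and 37.9% in ventral replicate 6. Genes with at least 1 count numbered 15871 to 16453 in a dorsal library and 17066 to 17151 in a ventral one. Mitochondrially encoded genes took 2.93 to 3.48% of dorsal counts and 5.98 to 7.05% of ventral counts. The saline libraries showed the same split, with 71.5 to 75.8% even numbers in the dorsal and 39.1 to 40.5% in the ventral ones. A sequencing lane is given for the ventral libraries and none for the dorsal ones, so region may be confounded with sequencing run too. Regional differences therefore cannot be told apart by group alone from differences in sequencing or in the way reads were counted. Ventral replicate 6, whose share of even numbers was that of the other ventral libraries, is given beside the results for that reason. Its value is that of 1 library and carries no test. Levels below are CPM, counts scaled to a common library size with TMM factors, and changes are log2 values of dorsal minus ventral from edgeR. Standard errors (SE) were derived as the size of the change divided by the square root of edgeR's F statistic.

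Genes known to mark the 2 parts of the striatum are described here without a test, since such genes decided which libraries were used. Of the 14 genes listed as dorsal markers, 10 had all 5 dorsal libraries above all 5 ventral ones, where 16.8% of all tested genes did. Coch, which encodes cochlin, stood at 133, 90.2, 102, 119 and 92.6 CPM in the dorsal libraries and at 19.5, 9.84, 10.7, 12.9 and 14 CPM in the ventral ones. Rasgrp2, a guanine exchange factor for Rap that is known from medium spiny neurons, stood at 438, 439, 499.9, 451 and 417 CPM in the dorsal and 98.4, 102, 89.7, 86.1 and 119.8 CPM in the ventral libraries. Cnr1, the cannabinoid CB1 receptor, ranged over 232 to 329.7 CPM against 42.1 to 90.4 CPM, and Adora2a, the adenosine receptor of D2 neurons, over 286 to 409 against 97.7 to 152 CPM. Drd2, the D2 dopamine receptor, overlapped between the regions, with 131, 127, 166, 145 and 152 CPM in the dorsal and 132, 163, 134, 114 and 182 CPM in the ventral libraries. Sh3rf2, Rarb and Kcnip2 also overlapped.

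Of the 15 genes listed as ventral markers, 12 had all ventral libraries above all dorsal ones, again beside 16.8% of all tested genes. Trhr, the receptor for thyrotropin-releasing hormone, stood at 0.332, 0.228, 0.213, 1.14 and 0.213 CPM in the dorsal libraries and at 11.2, 22, 23.1, 12.8 and 16.8 CPM in the ventral ones. The dorsal library at 1.14 CPM, replicate 4, stood apart from the other dorsal libraries and was still far below the lowest ventral library. Cartpt, the precursor of the peptide CART, stood at 1.66, 2.96, 4.55, 3.2 and 5.67 CPM and 50.4, 49.8, 42.1, 31.7 and 39.2 CPM. Drd3, the D3 dopamine receptor of the ventral striatum, ranged over 1.99 to 5.32 CPM in dorsal and 16.2 to 23.3 CPM in ventral libraries. Calcr, the calcitonin receptor, had 0 to 0.456 CPM in dorsal and 2.39 to 9.5 CPM in ventral libraries, where 0 counts in a dorsal library allow up to 0.168 to 0.217 CPM, for counting error only, and Peg10, an imprinted gene of retrotransposon origin, ranged over 22.8 to 31.5 and 81 to 226 CPM. Crym and Lypd1 overlapped between the regions. Tacr1, the receptor for substance P, went the other way, at 12.9 to 17.3 CPM in dorsal and 8.35 to 11.4 CPM in ventral libraries.

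**Figure D1:**
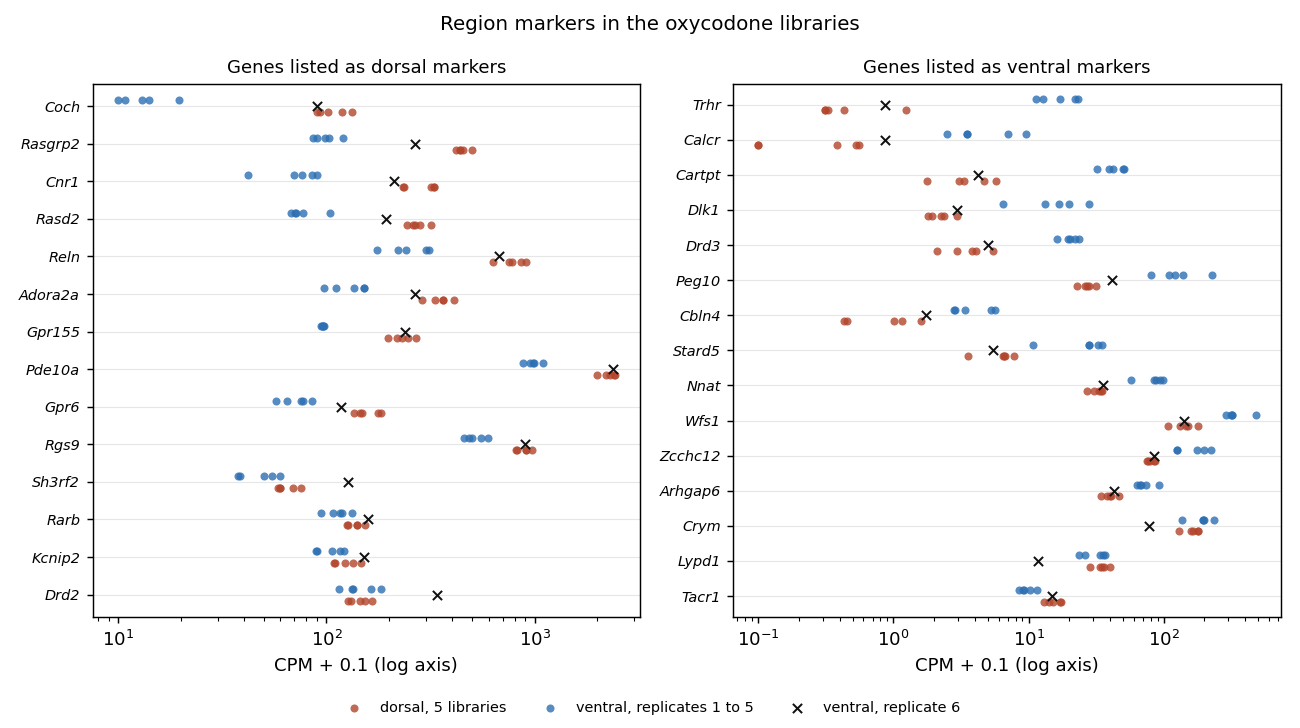
CPM plus 0.1 on a log axis for 14 genes listed as dorsal and 15 listed as ventral markers, with 1 point per library and a cross for ventral replicate 6. Dorsal and ventral points separate for 10 of the 14 and, in the listed direction, for 12 of the 15 genes, and the cross lies among or beside the dorsal points for most of these, and outside both groups for Drd2, Sh3rf2, Rarb, Kcnip2, Crym and Lypd1.

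The mean log2 CPM of the dorsal markers was 7.95 to 8.18 in the dorsal and 6.66 to 7.02 in the ventral libraries, and 8.08 in ventral replicate 6. For the ventral markers it was 3.10 to 3.45, 4.92 to 5.6 and 3.49. Another library stood apart for other genes. Ventral replicate 1 had the highest level of the markers of septal, preoptic and pallidal neurons, with a mean log2 CPM of 2.78 against 1.90 to 2.14 in ventral replicates 2 to 5, and results that rest on it are given with and without it.

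Across 14519 genes, 6900 (47.5%) passed an adjusted p of 0.05 in edgeR's quasi-likelihood test, 3622 (24.9%) higher in dorsal and 3278 (22.6%) higher in ventral striatum. With ventral replicate 6 included as labelled, 6785 of 14375 genes (47.2%) passed, 3372 (23.5%) higher in dorsal and 3413 (23.7%) higher in ventral striatum. Beyond a fold of 2, tested against that fold, 291 genes (2%) were higher in dorsal and 183 (1.26%) higher in ventral striatum, and with ventral replicate 6 these numbers were 193 (1.34%) and 116 (0.807%). Dorsal libraries whose titles carry no suffix P gave 6093 calls against the same ventral libraries, and those with the suffix gave 6210. The ventral libraries of lane 1 gave 6391, and lane 2 holds only 1 of the 5 ventral libraries.

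The same contrast in the saline mice shared no library with this one but had the same confounding. There 7227 of 14256 genes (50.7%) passed, 3889 (27.3%) higher in dorsal and 3338 (23.4%) higher in ventral striatum. Of the 3622 genes higher in dorsal striatum of oxycodone mice, 3045 (84.1%) were called higher in dorsal striatum of saline mice, where they made up 78.3% of the calls. Of the 3278 higher in ventral striatum, 2667 (81.4%) were called likewise in saline mice, 79.9% of those calls. In each direction 1 gene was called the opposite way. Saline ventral replicate 6 was left out of this fit, because its dorsal and ventral markers had mean log2 CPM of 4.28 and 2.19, below every other saline library.

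Among the largest differences in favour of dorsal striatum, leaving out the region markers and genes that share much sequence with other genes, were a transmembrane protein of Ras signalling, an inhibitor of growth signalling, an enzyme of tryptophan breakdown and genes of myelin. Tmem158 (ENSMUSG00000054871, GRCm38 chromosome 9, 123259053 to 123260764), a transmembrane protein induced by Ras signalling, stood at 127, 139.9, 90.7, 93.4 and 83.6 CPM in the dorsal and 5.59, 7.67, 9.03, 7.99 and 8.46 CPM in the ventral libraries without overlap, a log2 change of 3.81 (SE 0.17, adjusted p 1.26e-10). Its level of 14.5 CPM in ventral replicate 6 lay nearer to the ventral libraries. Lrrc10b, a leucine-rich repeat protein, was 8.15-fold higher in dorsal striatum, at 174 ± 46.3 against 21.5 ± 2.94 CPM (SD, n = 5 and 5), with 75.8 CPM in ventral replicate 6.

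Ido1, the enzyme that opens the kynurenine path of tryptophan breakdown (ENSMUSG00000031551, chromosome 8, 24584136 to 24597009), stood at 54, 42.6, 56.6, 63.9 and 46.2 CPM in the dorsal libraries, at 8.69, 11.2, 10.6, 13.4 and 7.45 CPM in the ventral ones and at 28.4 CPM in ventral replicate 6. Its log2 change was 2.38 (SE 0.16, adjusted p 3.93e-09). Ddit4l, an inhibitor of the growth kinase mTOR, was 7.00-fold higher in dorsal striatum, and its 12.9 CPM in ventral replicate 6 fell within the dorsal range of 11 to 19.9 CPM. Cd4, the co-receptor known from helper T cells, ranged over 46.2 to 52.3 CPM in dorsal and 8.47 to 14.8 CPM in ventral libraries, with 35.5 CPM in ventral replicate 6. Trnp1, a nuclear protein that acts on progenitor division, ranged over 47.5 to 78.4 and 5.49 to 11.6 CPM, and Apln, the precursor of the peptide apelin, over 5.87 to 11.4 and 1.6 to 2.74 CPM. Tm4sf1, a tetraspan protein known from endothelium, was 5.27-fold higher in dorsal striatum. Each of these genes was also called higher in dorsal striatum of saline mice, with log2 changes of 3.42 for Tmem158, 3.35 for Lrrc10b, 2.82 for Ido1 and 3.29 for Ddit4l.

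On the ventral side the largest differences were in an enzyme of heparan sulphate, imprinted genes, a cyclic nucleotide phosphodiesterase and transcription factors. Ndst4 (ENSMUSG00000027971, chromosome 3, 125404076 to 125728899), which sulphates heparan chains, stood at 62.2, 29.4, 107, 119 and 46.8 CPM in the ventral libraries and at 4.54, 7.97, 3.27, 5.97 and 3.83 CPM in the dorsal ones. The ventral libraries varied widely among themselves and still all lay above the dorsal ones, and the log2 change was -3.80 (SE 0.45, adjusted p 0.000111). Ventral replicate 6 held 7.3 CPM, within the dorsal range. Pde11a, a phosphodiesterase of cAMP and cGMP (ENSMUSG00000075270, chromosome 2, 75989141 to 76338774), stood at 10.5, 20.1, 10.5, 12.6 and 8.06 CPM in ventral, 2.83, 1.59, 1.71, 1.71 and 1.56 CPM in dorsal libraries and 2.72 CPM in ventral replicate 6, a log2 change of -2.68 (SE 0.27, adjusted p 5.15e-07).

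Magel2, an imprinted gene of the Prader-Willi region, ranged over 6.44 to 15.6 CPM in ventral and 0.569 to 1.98 CPM in dorsal libraries, a log2 change of -3.22 (SE 0.35). Zim1, an imprinted zinc finger gene, ranged over 5.74 to 15.1 and 0.114 to 2.27 CPM. Tcerg1l was 7.6-fold and AW551984 8.89-fold higher in ventral striatum, and both stood just above the dorsal range in ventral replicate 6, at 6.43 and 4.9 CPM. Rreb1, a Ras-responsive transcription factor, ranged over 69.4 to 125 CPM in ventral and 11.4 to 29.4 CPM in dorsal libraries. Klf5, another zinc finger factor, ranged over 21 to 39 and 4.99 to 8.93 CPM, and here ventral replicate 6 held 29.1 CPM, within the ventral range. All of these passed in saline mice too, with log2 changes from -4.01 for Ndst4 to -2.16 for Klf5.

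**Figure D2:**
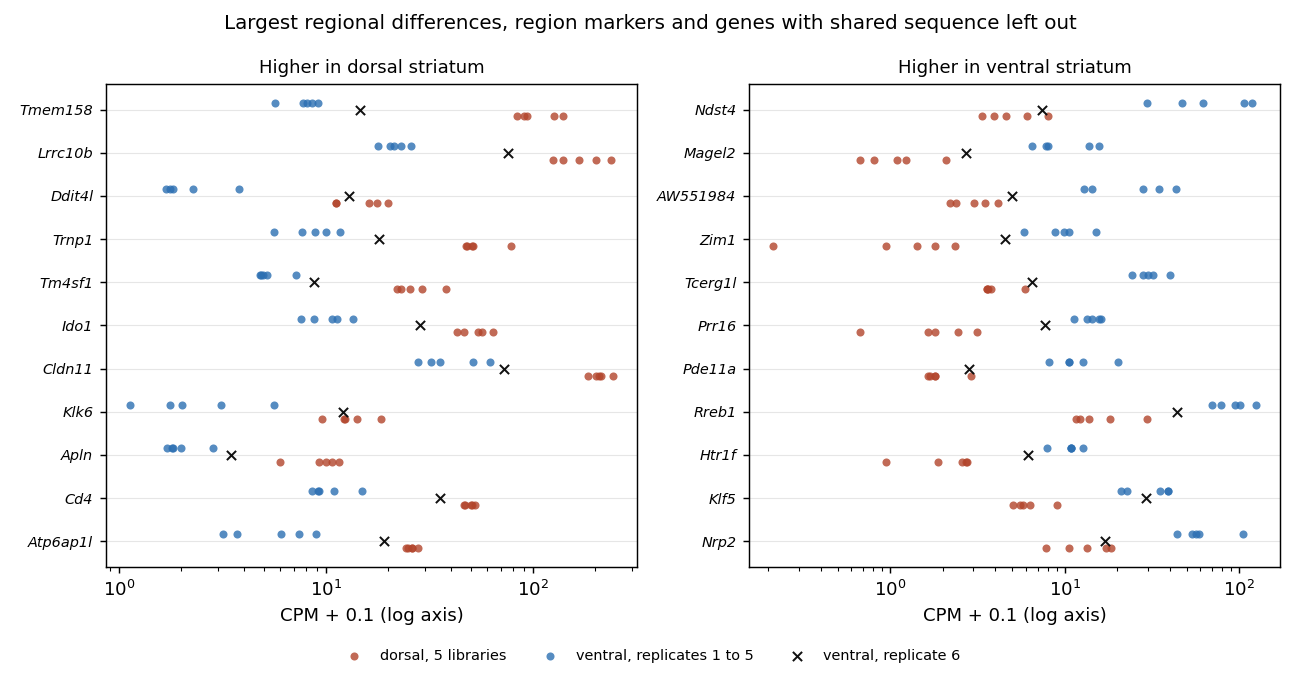
CPM plus 0.1 on a log axis for 11 genes among those most in favour of dorsal striatum and 11 among those most in favour of ventral striatum, with 1 point per library and a cross for ventral replicate 6. The regions overlap for none of these 22 genes, and the cross lies between them for most, within the ventral points for Klf5 and within the dorsal ones for Ddit4l, Klk6, Ndst4, Pde11a and Nrp2.

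The opioid system differed gene by gene, with the mu receptor higher in ventral and the delta and kappa receptors higher in dorsal striatum. Of its 7 genes, 3 were higher in dorsal and 3 higher in ventral striatum, beside 24.9% and 22.6% of all genes, and 1 did not pass, with a median log2 change of -0.20 against 0.01 over all genes. Oprm1 (ENSMUSG00000000766, chromosome 10, 6758506 to 7038198), the mu receptor, stood at 11.5, 16.1, 19, 14.9 and 15.1 CPM in the dorsal and 35.4, 51, 43.6, 33.5 and 40.7 CPM in the ventral libraries. The groups did not overlap, the log2 change was -1.39 (SE 0.15, adjusted p 6.74e-07), and ventral replicate 6 held 19.3 CPM, just above the dorsal range. The gene overlaps another on the opposite strand, and the strand setting of the counting is not given.

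Oprd1 (ENSMUSG00000050511, chromosome 4, 132110726 to 132144486), the delta receptor, stood at 30.3, 29.3, 26.4, 26.8 and 25.4 CPM in dorsal, 9.69, 9.38, 10.3, 9.18 and 11.7 CPM in ventral libraries and 19.5 CPM in ventral replicate 6, a log2 change of 1.48 (SE 0.12, adjusted p 5.4e-08). Oprk1, the kappa receptor (ENSMUSG00000025905, chromosome 1, 5588466 to 5606131), stood at 35.6, 38.6, 25.7, 38.9 and 31.8 CPM in dorsal and 18.3, 23.6, 21.7, 18.7 and 23.3 CPM in ventral libraries, a log2 change of 0.71 (SE 0.13, adjusted p 0.000236). Its level in ventral replicate 6, 14.1 CPM, was below all 10 other libraries. Oprl1, the nociceptin receptor, overlapped between the regions, with 21.2 to 29.7 CPM in dorsal and 23.2 to 32.9 CPM in ventral libraries and an adjusted p of 0.212.

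Penk, the enkephalin precursor, stood at 1419, 1138, 1536, 1576 and 1391 CPM in dorsal and 1096, 1261, 1068, 936 and 1078 CPM in ventral libraries, a log2 change of 0.40 (SE 0.09, adjusted p 0.00219), although the regions overlapped. With ventral replicate 6, which held 1852 CPM, more than any of the 10 others, the adjusted p was 0.258. Pdyn, the dynorphin precursor, stood at 66.7, 71.9, 69.4, 71.2 and 76.2 CPM in dorsal and 81.9, 96.1, 80.4, 77 and 84.8 CPM in ventral libraries, a log2 change of -0.22 with an adjusted p of 0.032, and 0.425 with ventral replicate 6, whose 47.3 CPM was below all 10 others. The call on Pdyn also ended when dorsal replicate 1 or 3 or ventral replicate 2 was left out, with adjusted p of 0.0706, 0.0554 and 0.108. Pnoc, the nociceptin precursor, was at or near 0 in dorsal libraries, at 0 to 0.284 CPM, and at 1.01 to 2.8 CPM in ventral ones, with a fitted log2 change of -3.31 (SE 0.62, adjusted p 0.000288) that depends on the prior count at such levels. In saline mice the log2 changes were -1.16 for Oprm1, 1.59 for Oprd1, 0.76 for Oprk1, 0.41 for Penk and -0.21 for Pdyn. Of these Pdyn did not pass in saline mice, with an adjusted p of 0.125.

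**Figure D3:**
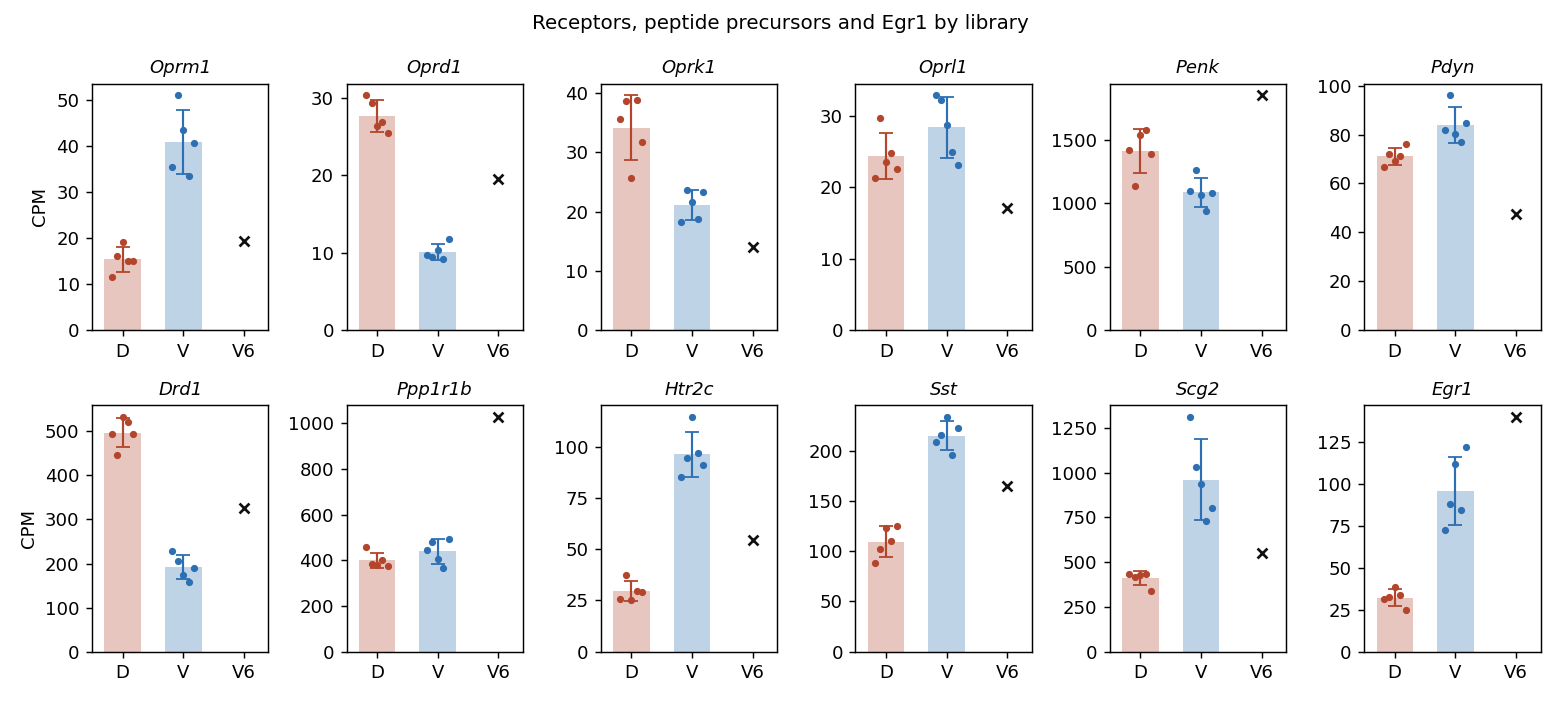
CPM of 12 genes, with bars and error bars for the mean and SD of 5 dorsal (D) and 5 ventral (V) libraries, a point per library, and a cross for ventral replicate 6 (V6). Oprm1, Htr2c, Sst, Scg2 and Egr1 are higher in ventral, Oprd1, Oprk1 and Drd1 higher in dorsal libraries without overlap, Pdyn is close between them, and Penk, Ppp1r1b and Oprl1 overlap.

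Of 14 tested genes of dopamine receptors and their signalling, counted without the region markers, 8 were higher in dorsal and 1 higher in ventral striatum, beside 24.9% and 22.6% of all genes, with a median log2 change of 0.77. Drd1, the D1 receptor (ENSMUSG00000021478, chromosome 13, 54051183 to 54055705), stood at 493, 446, 532, 520.3 and 495 CPM in dorsal and 229, 207, 175, 158 and 189 CPM in ventral libraries. Its log2 change was 1.39 (SE 0.09, adjusted p 5.24e-09), and ventral replicate 6 held 326 CPM, between the regions. Adcy5, the adenylyl cyclase that dopamine receptors act on in the striatum, ranged over 2256 to 2577 CPM in dorsal and 713 to 1271 CPM in ventral libraries, a log2 change of 1.36 with an adjusted p of 2.16e-07. Ppp1r1b, which encodes the phosphatase inhibitor DARPP-32, overlapped between the regions, at 399 ± 34.1 and 439 ± 53.5 CPM (SD, n = 5 and 5), for an adjusted p of 0.29. Ventral replicate 6 held 1027 CPM of Ppp1r1b, above all 10 others.

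Markers of medium spiny neurons of both classes shared members with that list, and 8 of 12 were higher in dorsal and 2 higher in ventral striatum, beside 24.9% and 22.6% of all genes, with a median log2 change of 0.61. Itpka, an inositol trisphosphate kinase of dendritic spines, ranged over 181 to 224 CPM in dorsal and 65.4 to 81.7 CPM in ventral libraries, with 95.5 CPM in ventral replicate 6. Of 9 markers of D1 neurons, 3 were higher in dorsal and 2 higher in ventral striatum, near the shares of all genes. Ebf1, a transcription factor of D1 neurons, had a log2 change of 1.2 with an adjusted p of 1.17e-05, and Chrm4, their muscarinic receptor, of 0.53 with 0.000121. Tac1, the substance P precursor of the same neurons, overlapped, at 157 ± 16.2 and 152 ± 21.3 CPM (SD, n = 5 and 5), for an adjusted p of 0.606.

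Of 7 matrix markers tested besides Rasgrp2, 5 were higher in dorsal and 1 higher in ventral striatum, beside 24.9% and 22.6% of all genes. Id4, an inhibitor of helix-loop-helix factors, ranged over 42.9 to 72.8 CPM in dorsal and 19.4 to 25.9 CPM in ventral libraries, and Epha4, an ephrin receptor, over 344 to 419 and 239 to 312 CPM. Gda, a guanine deaminase, was the 1 higher in ventral striatum, with a log2 change of -0.74 and an adjusted p of 2.06e-06. Of 9 striosome markers besides Lypd1, 2 were higher in dorsal and 3 higher in ventral striatum, near the shares of all genes. Kremen1, a regulator of Wnt signalling, stood at 26.2 to 29.6 CPM in dorsal and 10.4 to 14.3 CPM in ventral libraries, opposite in direction to Oprm1, and at 25.1 CPM in ventral replicate 6. Among genes of the endocannabinoid and adenosine systems besides Cnr1 and Adora2a, 4 of 11 were higher in dorsal and 1, the A1 receptor gene Adora1, higher in ventral striatum, beside 24.9% and 22.6% of all genes. Adk, adenosine kinase, had a log2 change of 0.89, and Slc29a1, an adenosine transporter, of 0.73, with adjusted p of 4.09e-06 and 2.54e-05.

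Other neuropeptide precursors that passed were higher in ventral striatum. Of 15 tested besides Cartpt, 5 were higher in ventral striatum, beside 22.6% of all genes, and 10 did not pass, with a median log2 change of -0.71. Scg2, the precursor of secretoneurin (ENSMUSG00000050711, chromosome 1, 79434669 to 79440120), stood at 432, 414, 429.8, 435 and 340.2 CPM in dorsal and 1310.0, 1033, 936, 728 and 799.9 CPM in ventral libraries, a log2 change of -1.21 (SE 0.13, adjusted p 4.64e-06). Sst, the somatostatin precursor of a class of interneurons (ENSMUSG00000004366, chromosome 16, 23889573 to 23890958), stood at 87.8, 102, 123, 110.4 and 125 CPM in dorsal, 209, 215, 234, 196 and 223 CPM in ventral libraries and 165 CPM in ventral replicate 6. Its log2 change was -0.95 (SE 0.10, adjusted p 4.16e-07). Nts, the neurotensin precursor, stood at 3.19 to 6.15 CPM in dorsal and 69.9, 19.9, 20.3, 16.6 and 11.3 CPM in ventral libraries. The high library was ventral replicate 1, and the log2 change moved from -2.46 to -1.79 without it, with adjusted p of 0.00248 and 4.7e-06.

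Of 12 serotonin receptors, 6 were higher in ventral and 2 higher in dorsal striatum, beside 22.6% and 24.9% of all genes, with a median log2 change of -0.49. Htr2c (ENSMUSG00000041380, chromosome X, 146962513 to 147197277), the 2C receptor, stood at 25.7, 37.5, 25.4, 29.5 and 29.1 CPM in dorsal and 85.3, 94.4, 114, 97.1 and 91 CPM in ventral libraries, a log2 change of -1.69 (SE 0.11, adjusted p 5.73e-09). Ventral replicate 6, at 54.4 CPM, lay between the groups. Htr1f ranged over 0.853 to 2.68 CPM in dorsal and 7.86 to 12.6 CPM in ventral libraries, and Htr1a from 0.886 to 1.94 and 3.58 to 6.09 CPM, with adjusted p of 2.97e-06 and 0.000266. Htr7 rested on ventral replicate 1, with a log2 change of -1.22 and an adjusted p of 0.0137, and of -0.81 and 0.0952 without it.

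Of 13 GABA-A receptor subunits, 2 were higher in dorsal and 7 higher in ventral striatum, beside 24.9% and 22.6% of all genes, with a median log2 change of -0.52. Gabrd and Gabra4, the delta and alpha4 subunits of extrasynaptic receptors, were the dorsal pair. Gabrd (ENSMUSG00000029054, chromosome 4, 155384980 to 155398112) stood at 208, 213, 242, 216 and 202 CPM in dorsal and 84.3, 97.8, 95, 85.5 and 99.4 CPM in ventral libraries, a log2 change of 1.24 (SE 0.08, adjusted p 3.58e-09), with 149 CPM in ventral replicate 6. Gabra4 ranged over 176 to 251 and 107 to 126 CPM. Gabrg3 and Gabra5, neighbours on chromosome 7, were higher in ventral striatum, with log2 changes of -0.94 and -0.82.

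Glutamate receptors gave 7 of 25 higher in dorsal and 5 higher in ventral striatum, near the 24.9% and 22.6% of all genes, and their median log2 change was 0.02. The NMDA receptor subunits Grin2a and Grin3a had log2 changes of 0.66 and -1.2, with adjusted p of 7.52e-05 and 3.7e-06. Of 39 potassium channel genes besides Kcnip2, 16 were higher in dorsal and 15 higher in ventral striatum, beside 24.9% and 22.6% of all genes. Kcnab1, a beta subunit of voltage-gated channels (ENSMUSG00000027827, chromosome 3, 65109384 to 65378223), stood at 447, 399, 458, 455 and 376 CPM in dorsal and 126, 127, 125, 114 and 127 CPM in ventral libraries, with SE 0.08 on a log2 change of 1.8 and an adjusted p of 2.87e-11. Kcnk1, a leak channel, had a log2 change of 1.73. Both overlap genes on the opposite strand.

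Of 34 netrins, slits, semaphorins and their receptors, 18 were higher in ventral and 5 higher in dorsal striatum, beside 22.6% and 24.9% of all genes, with a median log2 change of -0.42. Nrp2, a semaphorin co-receptor (ENSMUSG00000025969, chromosome 1, 62703285 to 62818695), stood at 7.76, 17.1, 10.5, 13.3 and 18.4 CPM in dorsal and 105, 53.5, 56.8, 58.6 and 44 CPM in ventral libraries, with a log2 change of -2.23 that was -1.99 without ventral replicate 1. Plxnc1, a plexin, ranged over 32.8 to 45.4 CPM in dorsal and 91.6 to 133 CPM in ventral libraries. Sema6a and Sema6d, transmembrane semaphorins, had log2 changes of -1.30 and -1.31, and ventral replicate 6 held 45.3 CPM of the first, within the ventral range, and 105 CPM of the other, just below it. Plxnd1, the receptor of Sema3e, was among the 5 higher in dorsal striatum, at 238 to 281 against 83.1 to 123 CPM, with 218 CPM in ventral replicate 6. Cadherins gave 8 of 15 higher in ventral and 2 higher in dorsal striatum, beside 22.6% and 24.9% of all genes. Cdh2, N-cadherin, had the lowest p among them, with a log2 change of -1.01 and an adjusted p of 1.73e-07. Eph receptors and ephrins gave 4 of 18 higher in dorsal and 6 higher in ventral striatum, beside 24.9% and 22.6% of all genes, with log2 changes of 1.5 for Ephb6 and -1.13 for Epha5.

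Of 41 forebrain transcription factors besides Rarb, 7 were higher in dorsal and 15 higher in ventral striatum, beside 24.9% and 22.6% of all genes. Rxrg, a retinoid X receptor, ranged over 149.8 to 241 CPM in dorsal and 72.4 to 91.9 CPM in ventral libraries, a log2 change of 1.35 with an adjusted p of 3.74e-07. The teashirt factors Tshz1 and Tshz2 had log2 changes of -0.88 and -1.95, and Zfhx4, a homeobox factor, of -0.78, with adjusted p of 1.1e-06, 1.65e-08 and 1.07e-06. Imprinted genes that passed were higher in ventral striatum. Besides the region markers, 9 of 15 were higher in ventral striatum, beside 22.6% of all genes, and 6 did not pass, with a median log2 change of -0.43. Peg3, a zinc finger gene expressed from the paternal copy (ENSMUSG00000002265, chromosome 7, 6703892 to 6730431), stood at 553, 536, 587, 628 and 602 CPM in dorsal and 1170.3, 1159.5, 1073, 963 and 856 CPM in ventral libraries, a log2 change of -0.83 (SE 0.09, adjusted p 6.97e-07). Zdbf2 and Mest had log2 changes of -1.17 and -1.18. Exons of Penk, Ppp1r1b, Gabra4, Gabra5, Slc29a1, Id4, Zic1, Tshz2, Zdbf2 and Mest, like those of Oprm1, overlap a gene on the opposite strand, and those of Plxnc1 one on the same strand, so their counts are uncertain to that extent. In ventral replicate 6 Peg3 stood at 821 CPM and Zdbf2 at 94.3 CPM, both between the groups.

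Immediate early genes, which neurons switch on within minutes of activity, gave 5 of 14 higher in ventral and 2 higher in dorsal striatum, beside 22.6% and 24.9% of all genes. Calls in either direction, 7 of 14, were near the 47.5% of all genes. Egr1 stood at 31.2, 32.6, 38.7, 33.6 and 25 CPM in dorsal and 72.7, 87.9, 112, 84.1 and 122 CPM in ventral libraries, a log2 change of -1.55 (SE 0.15, adjusted p 3.54e-07). Ventral replicate 6, at 139.7 CPM, was above all 10 others. Fos ranged over 6.54 to 13.3 CPM in dorsal and 16.7 to 26.4 CPM in ventral libraries, with a log2 change of -1.04 and an adjusted p of 0.000204, and its 12.4 CPM in ventral replicate 6 fell within the dorsal range. Log2 changes in saline mice were -1.33 for Egr1 and -0.91 for Fos.

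**Figure D4:**
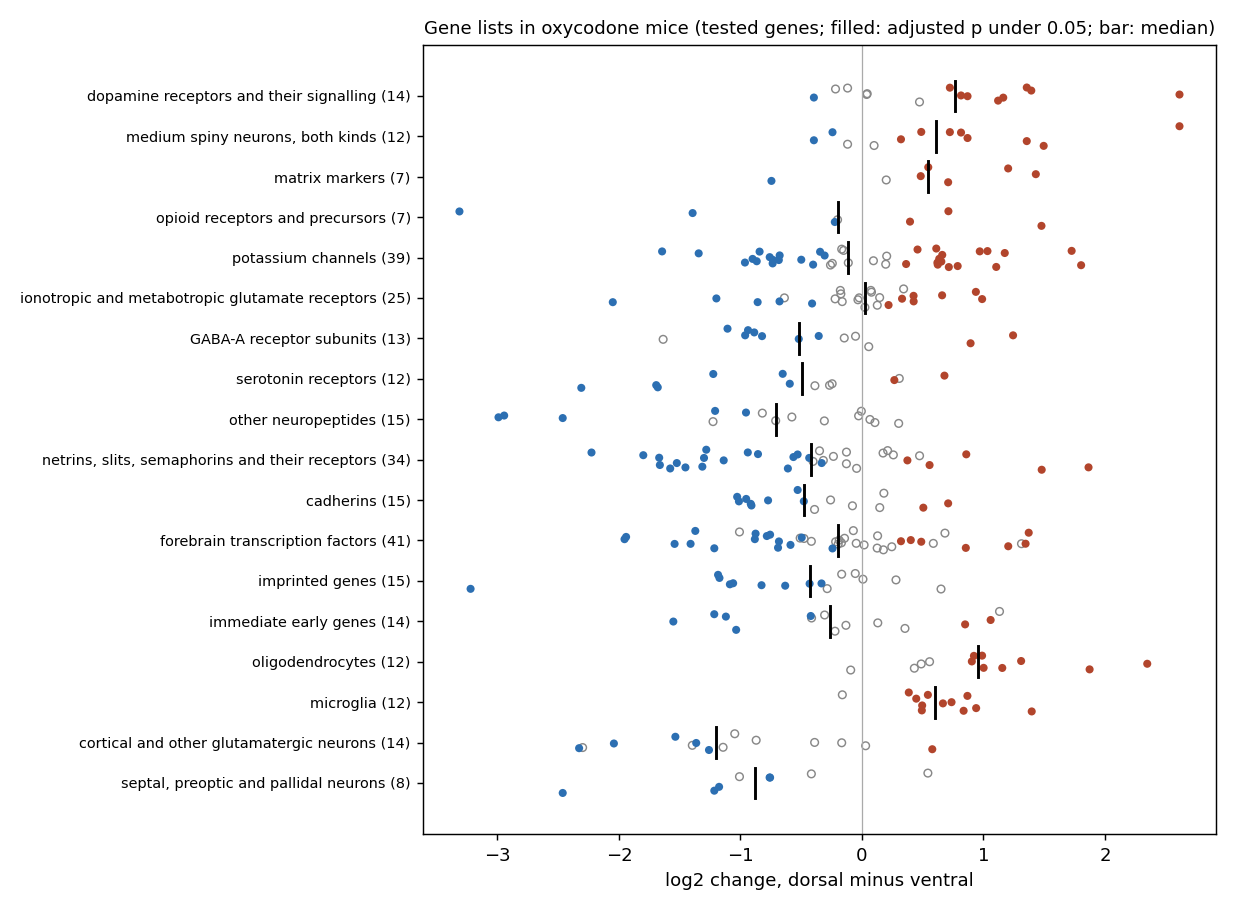
Log2 change, dorsal minus ventral, of the tested genes on 18 lists, 1 point per gene, with region markers left out and the number of genes in brackets. Filled points passed an adjusted p of 0.05 (red higher in dorsal, blue higher in ventral), open points did not, and the black bar is the median of the list.

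Markers of other cell types also differed between the regions. Of 12 oligodendrocyte markers, 8 were higher in dorsal striatum, beside 24.9% of all genes, and 4 did not pass, with a median log2 change of 0.96, and their summed level was 3001 to 4484 CPM in dorsal, 1344 to 2716 CPM in ventral libraries and 3465 CPM in ventral replicate 6. Mal, a myelin protein (ENSMUSG00000027375, chromosome 2, 127633226 to 127656695), stood at 106, 113, 101, 92.7 and 88 CPM in dorsal and 31.9, 22.5, 23.6, 24.8 and 35.2 CPM in ventral libraries, a log2 change of 1.87 (SE 0.12, adjusted p 4.79e-09). Cldn11, the claudin of myelin, ranged over 184 to 244 CPM and 27.7 to 61.9 CPM, and Klk6, an oligodendrocyte protease, over 9.47 to 18.4 and 1.03 to 5.49 CPM. Ventral replicate 6 held 39.2 CPM of Mal, just above the ventral range. It lay 36.0% of the way from the ventral to the dorsal mean of log2 CPM for Cldn11 and 95.6% for Klk6.

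Of 12 microglia markers, 11 were higher in dorsal striatum, beside 24.9% of all genes, and 1 did not pass, with a median log2 change of 0.60. Their summed level was 763.6 to 1110 CPM in dorsal, 512.1 to 697.6 CPM in ventral libraries and 724.2 CPM in ventral replicate 6. Trem2, a lipid receptor of microglia, ranged over 17.3 to 29.3 CPM in dorsal and 7.23 to 11.5 CPM in ventral libraries, and Tmem119 from 12.2 to 18.3 and 7.00 to 10.5 CPM. Both stood within the ventral range or close to it in ventral replicate 6, at 12.4 and 7.63 CPM.

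Among interneuron markers, 4 of 13 were higher in dorsal and 4 higher in ventral striatum, near the 24.9% and 22.6% of all genes. Chat, the acetylcholine synthesis enzyme of cholinergic interneurons (ENSMUSG00000021919, chromosome 14, 32408203 to 32465989), stood at 43.3, 42.8, 49.2, 54.1 and 38.3 CPM in dorsal and 30.4, 22.7, 16, 16.7 and 14 CPM in ventral libraries, a log2 change of 1.21 (SE 0.18, adjusted p 4.15e-05). Calb2, which encodes calretinin, was 4.18-fold higher in ventral striatum, at 14.4 to 22.9 against 1.77 to 7.52 CPM.

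Markers of neurons from neighbouring tissue were also measured. Of 8 markers of septal, preoptic and pallidal neurons, 5 were higher in ventral striatum, beside 22.6% of all genes, and 3 did not pass, with a summed level over the 12 listed genes of 190.2 to 279.5 CPM in ventral and 111.2 to 134.8 CPM in dorsal libraries and 129.9 CPM in ventral replicate 6. Zic1 had a log2 change of -1.22, and -1.03 without ventral replicate 1. Of 14 markers of cortical and other glutamatergic neurons, 5 were higher in ventral and 1, Lamp5, higher in dorsal striatum, beside 22.6% and 24.9% of all genes, with summed levels of 195.6 to 648.1 and 140.8 to 288.3 CPM. Slc17a6, the vesicular glutamate transporter of subcortical neurons, stood at 0.665 to 3.69 CPM in dorsal and 26.2, 9.27, 8.36, 9.54 and 5.74 CPM in ventral libraries, with a log2 change of -2.33, or -1.82 without ventral replicate 1. Their part in the other ventral differences was not tested.

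Choroid plexus RNA varied among the dorsal libraries. Ttr, the transthyretin gene of choroid plexus, stood at 3174, 1848, 186, 51.6 and 2970.3 CPM in dorsal and 30.4, 1.72, 1.47, 2.5 and 8.16 CPM in ventral libraries, and ventral replicate 6 held 1723 CPM. The adjusted p was 0.00354 without and 0.321 with that library. Of 8 tested markers of choroid plexus and ependyma, 6 were higher in dorsal striatum, beside 24.9% of all genes, and with ventral replicate 6 only 1 was, Tmem212. Hbb-bs, a haemoglobin gene, overlapped between the regions at 405 to 1195 CPM in dorsal and 72.2 to 489.7 CPM in ventral libraries, with an adjusted p of 0.0247. That call ended without dorsal replicate 5 or ventral replicate 2, 3 or 5, at adjusted p of 0.0559, 0.0516, 0.0658 and 0.0633.

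A group of short or repeated genes was high in dorsal libraries and lay at or near the ventral range in ventral replicate 6. The replication-dependent histone genes are among them, and several encode the same protein from nearly the same letters. Whether shared sequence had a part in their levels was not tested. The coding stretch below, bases 127 to 186 of the coding sequence of 4 histone H4 genes on GRCm38 chromosome 13, is shown because a read lying within it cannot be given to 1 of them. Letters are from GENCODE M21 transcripts, each 5′ to 3′ on the strand of its gene, and capitals would mark differences from Hist1h4m, of which there are 0 in this stretch.
Hist1h4m, chr13:21811910-21811969, plus strand: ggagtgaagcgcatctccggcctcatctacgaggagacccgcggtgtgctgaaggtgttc
Hist1h4n, chr13:21831973-21832032, minus strand: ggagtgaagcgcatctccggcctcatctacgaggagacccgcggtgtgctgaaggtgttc
Hist1h4j, chr13:21735222-21735281, plus strand: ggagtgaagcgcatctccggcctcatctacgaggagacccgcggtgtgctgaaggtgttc
Hist1h4h, chr13:23531241-23531300, plus strand: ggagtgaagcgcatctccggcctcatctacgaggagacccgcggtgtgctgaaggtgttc

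Over the whole coding sequence of 309 bases, Hist1h4n was 100%, Hist1h4h 96.8% and Hist1h4j 94.8% identical to Hist1h4m. Hist1h4m stood at 12, 19.6, 14.2, 14.4 and 16.4 CPM in dorsal and 0.3, 0.229, 0.677, 0.239 and 0.907 CPM in ventral libraries, with 0.654 CPM in ventral replicate 6. Hist1h4h ranged over 155 to 186 CPM in dorsal and 28.5 to 37.4 CPM in ventral libraries, with 39.1 CPM in ventral replicate 6, so the first lay within the ventral range there and the other just above it. The log2 changes were 4.99 and 2.37. Of 42 tested histone genes, 29 were higher in dorsal and 1 higher in ventral striatum, beside 24.9% and 22.6% of all genes.

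Chchd2, a mitochondrial protein, stood at 122 to 148 CPM in dorsal, 10.6 to 19.2 CPM in ventral libraries and 15.7 CPM in ventral replicate 6, and Sec61g, a subunit of the protein translocon, at 17.6 to 21.6, 0.499 to 1.6 and 0.872 CPM. Of 85 cytosolic ribosomal protein genes, 49 were higher in dorsal and 16 higher in ventral striatum, beside 24.9% and 22.6% of all genes. Mitochondrially encoded genes went both ways. Of 12, 4 were higher in dorsal and 7 higher in ventral striatum, beside 24.9% and 22.6% of all genes. mt-Cytb, cytochrome b, stood at 1117 to 1771 CPM in dorsal, 10247 to 12137 CPM in ventral libraries and 18100.0 CPM in ventral replicate 6, while mt-Co3, a subunit of cytochrome c oxidase of whose 50-base stretches 99.9% occur in another gene, stood at 37.8 to 51, 2.4 to 3.58 and 4.25 CPM.

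All genes were also grouped by the share of their 50-base transcript stretches that also occur in another gene. Among 2455 genes with at least 10% shared stretches, mitochondrial genes, region markers and genes without annotation left out, 138 (5.62%) passed beyond a fold of 2, 119 higher in dorsal and 19 higher in ventral striatum. Of the 11867 genes with less than 10%, 302 (2.54%) passed, 156 and 146. On a scale with 0% at the ventral mean and 100% at the dorsal mean of log2 CPM, ventral replicate 6 had a median position of 5.56% over the 119 genes and 36.8% over the 156. Its position was under 20% for 97 of the 119 genes and for 50 of the 156, so the classes differed but were not separate. For genes higher in ventral striatum the median positions were close, at 44.4% over the 146 and 44.3% over the 19. Positions under 20% were held by 42 of the 146 (28.8%) and 9 of the 19 (47.4%). Ventral replicate 6 lay within the range of the 5 ventral libraries for 73 of the 119 genes and for 37 of the 156. The part of counting and of tissue in any 1 of these values was not tested.

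**Figure D5:**
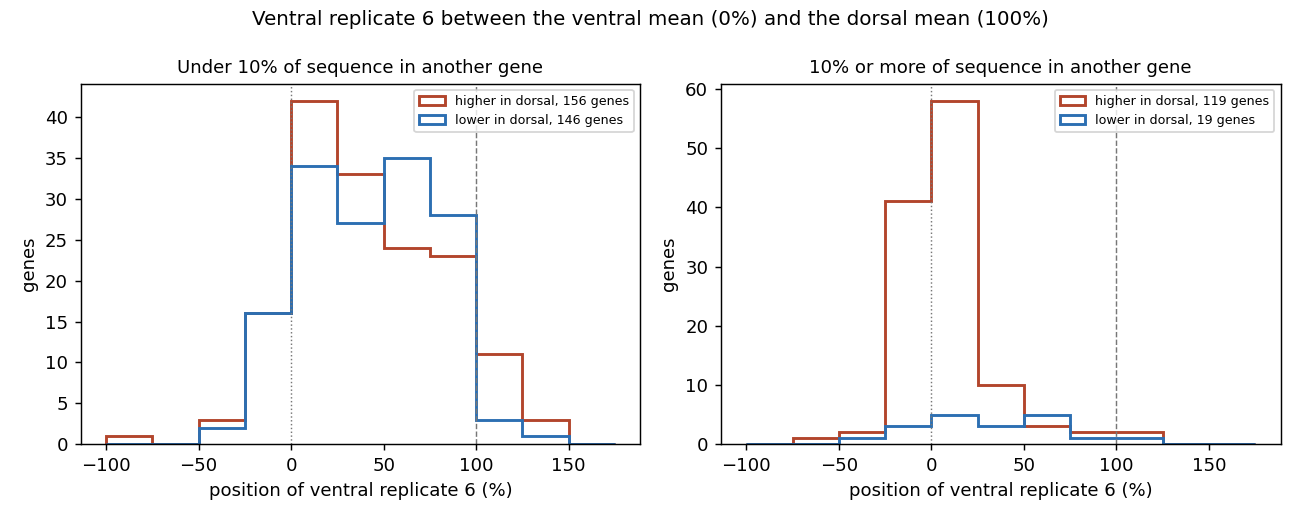
Number of genes by the position of ventral replicate 6 between the ventral mean (0%, dotted) and the dorsal mean (100%, dashed) of log2 CPM, for genes beyond a fold of 2 with under 10% (left) and at least 10% (right) of their sequence in another gene. Genes higher in dorsal striatum gather near 0% on the right, with a median of 5.56%, and spread mostly over 0 to 100% on the left, with a median of 36.8%.

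No gene had a regional difference that passed as larger or smaller in oxycodone than in saline mice, which does not show that the differences were alike. In the test of that difference over 20 libraries, 0 of 14891 genes passed in edgeR, DESeq2 and limma-voom alike, edgeR's adjusted p went down to 0.297, and 611 genes fell under 0.05 before adjustment, where 745 would at 5%. Htr1f had the lowest p, with a log2 change of -2.31 in oxycodone and -0.60 in saline mice, a difference of -1.71 (SE 0.36, adjusted p 0.297). Robo3, a guidance receptor, had log2 changes of 1.86 and 3.20, a difference of -1.34 (SE 0.29), and Rgs4, a brake on G protein signalling, of 1.16 and 1.72, a difference of -0.56 (SE 0.12). The adjusted p was 0.297 for both in edgeR. Rgs4 stood at 725 CPM in ventral replicate 6, above all 10 others, and its regional call in oxycodone mice ended with that library, at an adjusted p of 0.166. For Oprm1 the difference was -0.24 (SE 0.21) and for Drd1 -0.17 (SE 0.12). Across 14121 genes the 2 regional contrasts had a Pearson r of 0.907, a value across genes, which are not independent replicates, in contrasts that share the same confounding.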

How the data were processed

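Total RNA from dissected striatum was extracted with miRNeasy and made into TruSeq Stranded Total RNA libraries with Ribo-Zero, per the labels' protocols. The authors deposited 1 table of raw counts per gene for 23119 genes and 22 libraries. CASAVA 1.8.2, STAR 2.3 and featureCounts, and the builds mm10, GRCm38 and mm9, are named per the submitters' processing notes. Strand, multimapping and mate settings are not given in the sources used here. Symbols and coordinates come from GENCODE M21 on GRCm38, which matched 22282 of the gene IDs.

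Groups were taken from the labels. The members, lists and tests were chosen with earlier results of these data known. Counts were analysed in R 4.3.3 with edgeR 4.0.16: filterByExpr, TMM factors, the robust quasi-likelihood test, glmTreat at a fold of 2, Benjamini-Hochberg adjustment at 0.05, all two-sided and adjusted over all genes tested. CPM in the text are TMM-scaled, and log2 CPM levels use a prior count of 2. Log2 changes come from the quasi-likelihood fit with edgeR's default prior count. DESeq2 1.42.0, limma 3.58.1 (voom), other scalings and filters, left-out libraries and batches were alternatives. Region markers were left out of the other lists.

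Genes named for the largest changes are protein-coding, overlap no other exon, average at least 5 CPM and pass with and without ventral replicate 6. The 12 with the largest change in each direction were chosen first. After seeing the data, the ranking was redone without genes that have at least 10% of their 50-base stretches in another gene. It was then taken further down, so some genes named, such as Ido1, Cd4, Tm4sf1, Klf5 and Nrp2, lie outside the first 12. Others, not held to all of these limits, are up to 4 per list by lowest p, a fixed set of receptors and peptides, and the lowest p for the difference between treatments. Some further genes named, such as Oprl1 and Ttr, did not pass with ventral replicate 6. The scripts were tested on simulated data. Results for some single genes are not reported here.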

Additional observations from a re-analysis of the deposited data

Results flagged for a closer look

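Of 282 groups of 5 libraries for single genes, 22 had a library standing apart by the gap test. So did 7 of 44 groups of 5 or 6 libraries for whole-library measures. Chance flags about 1 in 20 in either kind.

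Ventral replicate 1 stood apart most often. Its level was above the other 4 ventral libraries for Nts at 69.9 CPM, Slc17a6 at 26.2 CPM, Zic1 at 36.0 CPM, Htr7 at 8.69 CPM, Nrp2 at 105 CPM, Sema6d at 169.9 CPM, Ddit4l at 3.70 CPM and Ttr at 30.4 CPM, and below them for Stard5, a ventral marker, at 10.7 CPM.

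Ventral replicate 6 stood apart from the other ventral libraries in its mitochondrial share of 9.25% and in the 12.7% of counts taken by its 20 highest genes. It also did so in mean log2 CPM of dorsal markers (8.08), ventral markers (3.49) and choroid plexus and ependyma markers (4.73). The dorsal and ventral markers decided that this library was left out, so its flags on them were fixed in advance and are no separate result.

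Other ventral libraries stood high for Tm4sf1 at 7.04 CPM and Apln at 2.74 CPM in replicate 4, Plxnd1 at 123 CPM and Rasd2 at 104 CPM in replicate 5, and Wfs1 at 478 CPM in replicate 2. Kcnab1 was low in replicate 4, at 114 CPM.

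In the dorsal libraries, replicate 1 was high for Trnp1 at 78.4 CPM and Pde11a at 2.83 CPM, and replicate 4 for Tcerg1l at 5.83 CPM and Trhr at 1.14 CPM. Dorsal replicate 5 was high for Fosl2 at 15.0 CPM and Csf1r at 233 CPM, low for Scg2 at 340.2 CPM, and high in mean log2 CPM of endothelium markers, at 5.80. Dorsal replicate 3 was high in that of D2 medium spiny neuron markers, at 6.83.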

How the results depend on the processing

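In oxycodone mice the 6900 calls ranged from 6047 to 6863 with 1 library left out, and the 474 beyond a fold of 2 from 381 to 531. Ventral replicate 6 lowered the calls beyond a fold of 2 to 309. Only genes whose exons overlap no other gene gave 4282 calls and 302 beyond a fold of 2, from 9133 genes tested. Only genes with under 10% shared stretches, an alternative chosen after seeing the data, gave 5556 and 300, from 11890 genes. DESeq2 gave 7243 calls and limma-voom 6744. The saline contrast ranged from 6483 to 7471 with 1 library left out, and the difference between treatments gave 0 calls in each setting run. Title numbers were not taken as pairing the libraries, since the labels do not say so and same-numbered libraries did not all deviate together. Correlations of deviations were -0.048 to 0.339 in the 5 same-numbered pairs and -0.226 to 0.105 in 20 differently numbered ones. Of the 5, 2 lay above all 20, so these values do not exclude that some libraries are paired. A fit with the title number as a replicate block gave 6657 calls and 478 beyond a fold of 2, against 6391 and 430 without the block in the same 9 libraries. Of the named genes, Penk, Pdyn, Rgs4, Ttr, Htr7, Hbb-bs, Neurod6 and Gpr149 lost their call in at least 1 setting, and no called gene changed direction. Of genes not called, Tac1 changed sign in at least 1 setting and Drd2 with ventral replicate 6. Neurod6 had an adjusted p of 0.098 under the block and Htr7 of 0.0606 with the P-suffixed dorsal libraries alone. The cause of these changes was not tested.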

Other observations

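Of 10 endothelium markers, 5 were higher in dorsal and 1 higher in ventral striatum, beside 24.9% and 22.6% of all genes, and of 8 markers of pericytes and vascular smooth muscle, 5 were higher in dorsal striatum and 3 did not pass. Cldn5, the tight junction claudin of brain endothelium, ranged over 16.8 to 27.5 CPM in dorsal and 7.11 to 15.5 CPM in ventral libraries, with a log2 change of 1.12 and an edgeR adjusted p of 0.00017. Rgs5, a pericyte gene, ranged over 43.7 to 61.7 and 26.7 to 40.7 CPM, with a log2 change of 0.80 and an edgeR adjusted p of 4.13e-05. Astrocyte markers gave 3 of 10 higher in dorsal and 1 higher in ventral striatum, beside the same 24.9% and 22.6% of all genes. Precursors of oligodendrocytes gave 1 of 7 higher in dorsal striatum, below the 24.9% of all genes. The medians of these lists were 0.17 and 0.01 on the log2 scale.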
